A study of Mus musculus with 6 samples.

Results

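The genes described here make, activate, hydroxylate, carry, attach and remove sialic acid, and 9 of the 10 listed (Cmah, Gne, Nans, Cmas, Slc35a1, St6gal1, St3gal1, Neu1 and Npl) were among the 21115 probe sets measured, while Nanp was not analysed here. They were chosen by function around Cmah, which was itself selected on its lower level with BMP2 in an earlier reading of these samples. Their BMP2 differences are therefore given as a description, and no test of them is offered as support. Primary hepatocytes of C57BL/6 mice were compared in 2 groups of 3 samples, namely control cells without BMP2 and cells given 50 ng/ml recombinant BMP2 for 24 hours. The study design states that 3 mice supplied the cells, and the samples of both groups carry replicate numbers 1 to 3. All 6 samples shared plating on collagen with serum and dexamethasone, followed by serum-free culture. The BMP2 stock was dissolved in dilute hydrochloric acid, and whether control cells received that solvent, and how old and of which sex the mice were, was not given in the sources used here. BMP2 (bone morphogenetic protein 2) is a secreted ligand that acts through SMAD transcription factors, and the series title places it among the signals by which liver vessels control iron.

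Sialic acids are acidic sugars that cap the outer ends of glycans on secreted and membrane glycoproteins and on gangliosides. Gne starts their synthesis from UDP-N-acetylglucosamine in the cytosol, Nans and Nanp complete N-acetylneuraminic acid, Cmas couples it to CMP in the nucleus, and Slc35a1 carries the CMP sugar into the Golgi, where sialyltransferases attach it to glycans. Cmah hydroxylates CMP-N-acetylneuraminic acid to CMP-N-glycolylneuraminic acid, a form that mice make and humans do not, because the human gene is inactive. In the liver most secreted plasma glycoproteins carry sialic acid on their N-glycans, and galactose ends that have lost it are recognised by the asialoglycoprotein receptor of hepatocytes.

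Expression was given on the log2 scale, 1 value per gene and sample, from 6.35 to 14.02, and sample medians lay between 6.80 and 6.81. Levels under 7 were taken as near the floor of the array, where changes are compressed, and 57.9% of all probe sets had a mean below it. An array holds no read depth, so precision rested on the 3 samples per group. Nothing in the labels ties a control and a BMP2 culture of 1 number to the same mouse beyond the shared number, but samples of the same number deviated together over all genes (r of 0.48, 0.58 and 0.61). Id1, a direct BMP target, lay between 7.21 and 7.50 in the control and between 11.64 and 11.75 in the BMP2 samples, so every sample was on the side its label gives.

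Cmah lay at 11.05, 11.13 and 11.24 in control replicates 1 to 3, and at 10.20, 10.15 and 10.41 in the BMP2 samples. All BMP2 samples were below all control samples, and replicate 3 was highest in both groups. The mean was 11.14 ± 0.09 (SD, n = 3) in control and 10.25 ± 0.14 (SD, n = 3) with BMP2. On the log2 scale the BMP2 level was lower by 0.89 (difference -0.89, SE 0.09, 95% interval -1.11 to -0.67), which is 54.0% of the control level (interval 46.5% to 62.7%). Within replicate numbers 1, 2 and 3 the differences were -0.85, -0.99 and -0.83. Among all 21115 probe sets this difference ranked 17 from the lowest. Cmah lay well above the floor of the array in every sample.

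**Figure D1:**
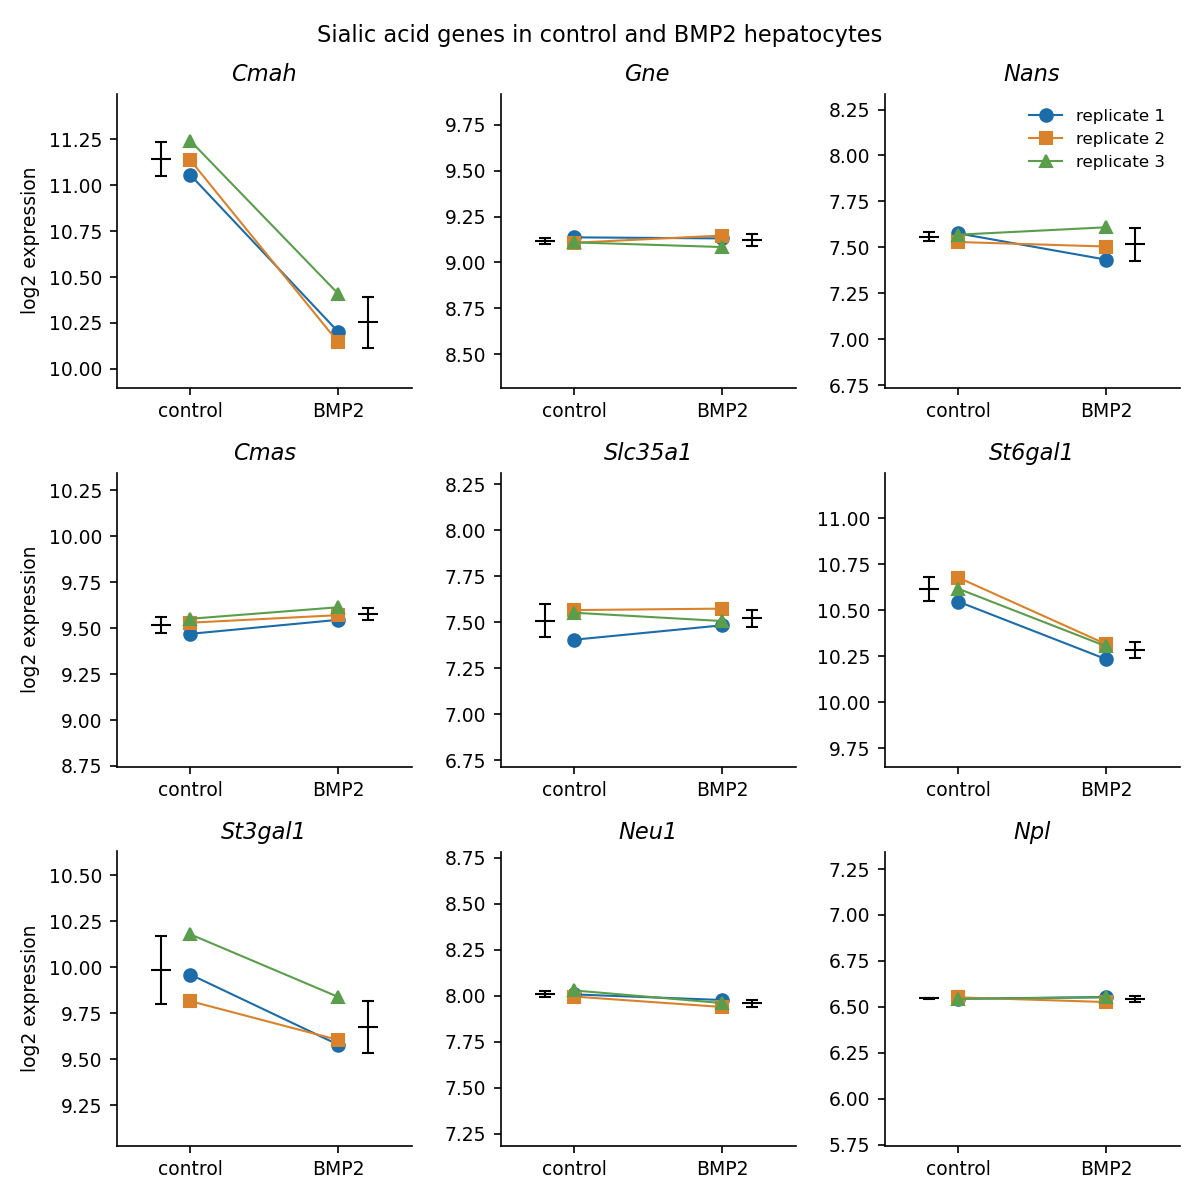
Log2 expression of the 9 measured sialic acid genes in control and BMP2 hepatocytes, with lines joining samples of the same replicate number and black bars giving mean ± SD (n = 3 per group). Every panel spans the same 1.6 log2 units around its own centre, so slopes can be compared between panels but levels cannot. The lines of Cmah, St6gal1 and St3gal1 descend in all 3 replicate numbers, as do those of Neu1, slightly (-0.03, -0.06 and -0.07).

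Of the 9 measured genes 2 were called in the fit over all genes, Cmah and St6gal1, both lower with BMP2 (limma, Benjamini-Hochberg adjusted p under 0.05 over 21115 probe sets). Over all probe sets the share called was 1.19%, with 0.616% higher and 0.573% lower, and since this contrast helped to choose the genes nothing is read from their count. Leaving out samples changed these calls. Cmah was called in 1 of the 6 fits without a sample, that without BMP2 replicate 3, where its difference was -0.97. Its difference was -0.93, -0.89 and -0.84 without control replicates 1, 2 and 3, and -0.86 and -0.84 without BMP2 replicates 1 and 2, and in those 5 fits it was not called. St6gal1 was called in 0 of the 6 fits, with differences from -0.36 to -0.30. With median centring it was not called (difference -0.33, limma adjusted p = 0.0503, against 0.0427 without centring). In the fits without a sample 3 to 5 of the 9 genes had an unadjusted limma p under 0.05, beside 2108 to 2836 of all 21115 probe sets. Nothing is read from that count either. With the replicate number as a block the same genes, Cmah and St6gal1, were called, against 3.32% of all probe sets (1.68% higher, 1.64% lower).

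The 250 bases before each transcription start that RefSeq annotates for Cmah and St6gal1 are shown because these are the 2 members called lower, and because the array gives 1 value per gene and so does not tell which start was used. RefSeq promoters (build GRCm38.p6) were found for 7 of the 10 genes. Cmah has 2 annotated starts that lie 87718 bases apart, and St6gal1 has 3 within 65730 bases. Capitals mark GTCT, the core to which SMAD proteins bind, or its reverse complement.
Cmah start 1, chr13:24327154-24327403, plus strand: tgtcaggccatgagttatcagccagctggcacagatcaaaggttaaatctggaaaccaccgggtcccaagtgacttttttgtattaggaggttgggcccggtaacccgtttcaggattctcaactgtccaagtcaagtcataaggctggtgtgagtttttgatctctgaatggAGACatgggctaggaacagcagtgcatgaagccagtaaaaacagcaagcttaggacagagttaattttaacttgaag
Cmah start 2, chr13:24414872-24415121, plus strand: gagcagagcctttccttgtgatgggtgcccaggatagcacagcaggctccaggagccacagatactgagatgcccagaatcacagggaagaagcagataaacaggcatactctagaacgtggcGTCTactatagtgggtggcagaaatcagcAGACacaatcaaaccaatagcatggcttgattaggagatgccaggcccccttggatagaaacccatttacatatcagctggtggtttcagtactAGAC
St6gal1 start 1, chr16:23224490-23224739, plus strand: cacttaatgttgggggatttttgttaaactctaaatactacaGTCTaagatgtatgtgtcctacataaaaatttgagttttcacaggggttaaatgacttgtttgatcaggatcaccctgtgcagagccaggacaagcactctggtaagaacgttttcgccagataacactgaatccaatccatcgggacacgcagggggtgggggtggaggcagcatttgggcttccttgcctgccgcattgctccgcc
St6gal1 start 2, chr16:23225771-23226020, plus strand: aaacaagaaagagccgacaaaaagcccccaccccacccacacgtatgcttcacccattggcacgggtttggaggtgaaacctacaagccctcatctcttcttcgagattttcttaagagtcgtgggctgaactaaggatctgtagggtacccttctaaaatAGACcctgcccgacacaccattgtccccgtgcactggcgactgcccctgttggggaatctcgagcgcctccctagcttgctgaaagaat
St6gal1 start 3, chr16:23290220-23290469, plus strand: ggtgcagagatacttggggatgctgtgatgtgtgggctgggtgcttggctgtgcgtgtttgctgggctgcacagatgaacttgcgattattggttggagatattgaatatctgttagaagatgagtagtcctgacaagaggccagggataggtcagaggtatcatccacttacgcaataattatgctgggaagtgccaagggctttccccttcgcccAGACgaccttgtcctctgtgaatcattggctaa

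Each of the 5 windows held at least 1 GTCT on either strand (1 and 3 for Cmah starts 1 and 2, and 1 at each start of St6gal1). This is a common motif, since 82.9% of the 32851 annotated windows of 250 bases hold it. The GC-rich motif GGCGCC, bound by BMP-activated SMADs in known targets, had no match in any of the 5 windows on either strand, and 9.59% of all windows hold it. These matches describe the letters of these windows only. GC content was 45.6% and 49.6% for Cmah and 47.2%, 52.8% and 49.6% for St6gal1, against a median of 52.4% over all windows. The Cmah windows held 3 and 2 CpG pairs, and the St6gal1 windows 6, 10 and 5, against a median of 6.

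The measured synthesis genes upstream of Cmah differed little between the groups. Gne, the epimerase and kinase that sets the rate of sialic acid synthesis, lay at 9.14, 9.11 and 9.11 in control and at 9.13, 9.15 and 9.08 in BMP2 samples. The groups overlapped, and the difference was 0.0026 ± 0.02 (SE), with a 95% interval from 96.8% to 103.7% of control. Nans, the synthase of N-acetylneuraminic acid phosphate, lay at 7.58, 7.53 and 7.57 in control and at 7.43, 7.50 and 7.61 in BMP2 samples. Its groups overlapped too, with replicate 1 lower and replicate 3 higher with BMP2, and its interval ran from 89.4% to 105.5% of control. A BMP2 difference of the size seen for Cmah thus lay outside both intervals.

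Cmas, which makes the CMP sugar that Cmah uses, lay at 9.47, 9.53 and 9.55 in control and at 9.54, 9.57 and 9.61 in BMP2 samples. It was slightly higher with BMP2 in all 3 replicate numbers (0.08, 0.04 and 0.06), while the groups overlapped and the interval ran from 99.1% to 109.6% of control. Slc35a1, the Golgi transporter of CMP-sialic acid, lay at 7.41, 7.57 and 7.55 in control and at 7.48, 7.57 and 7.51 in BMP2 samples. Its groups overlapped, its replicate differences pointed both ways (0.08, 0.0078 and -0.04), and its interval ran from 92.2% to 110.5% of control. The sizes of these differences can be set against the median absolute difference of 0.05 over the 8879 probe sets with a mean of at least 7.

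**Figure D2:**
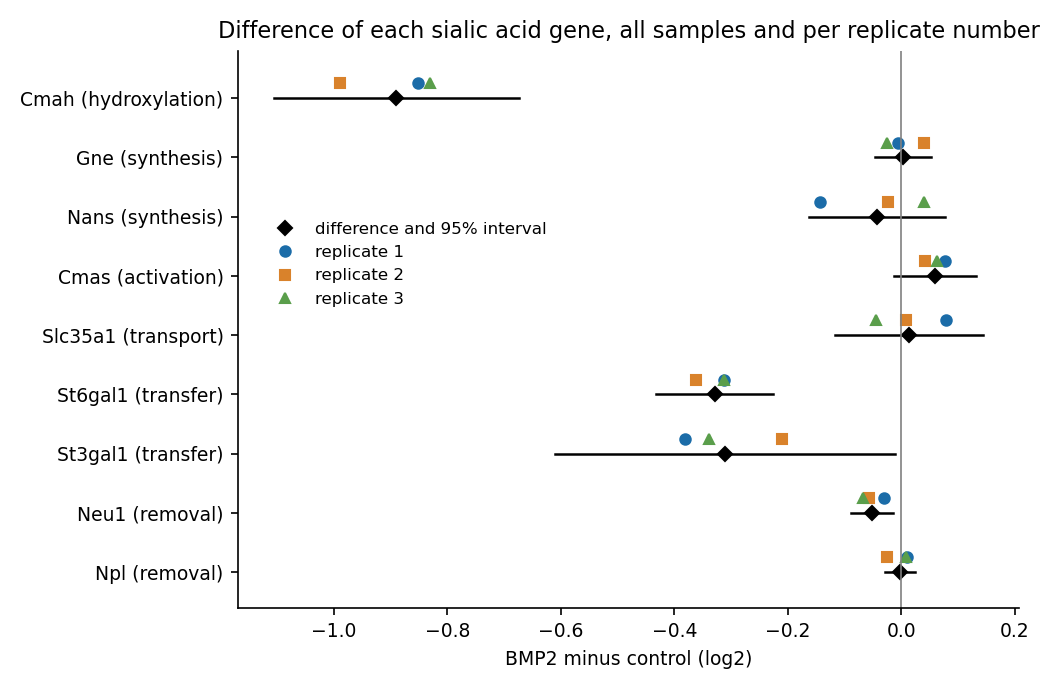
BMP2 minus control difference on the log2 scale for the 9 measured genes, ordered by role, with black diamonds and lines for the difference and its 95% interval from limma and coloured symbols for the 3 differences within replicate numbers. Cmah is at -0.89, St6gal1 at -0.33 and St3gal1 at -0.31, while the other 6 genes lie between -0.05 and 0.06.

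Both sialyltransferases among the members were lower with BMP2 in all 3 replicate numbers. St6gal1, the main hepatocyte enzyme that places sialic acid on the galactose ends of N-glycans, lay at 10.55, 10.68 and 10.62 in control and at 10.23, 10.32 and 10.30 in BMP2 samples. All BMP2 samples were below all control samples, and the level was 79.6% of control (difference -0.33 ± 0.04 SE, interval 74.1% to 85.5%). The differences within replicate numbers were close together, at -0.31, -0.36 and -0.31. St3gal1, which sialylates the galactose of core O-glycans, lay at 9.96, 9.82 and 10.18 in control and at 9.58, 9.61 and 9.84 in BMP2 samples. Here the groups overlapped, because BMP2 replicate 3 was above control replicate 2. Its mean difference of -0.31 ± 0.12 (SE) was close to that of St6gal1. The St3gal1 interval, from the fit without the block, was wide (65.5% to 99.3% of control) and includes spread between replicate numbers. St3gal1 was not called with the block (limma adjusted p = 0.065) or without it (0.38). The SD between samples was 0.18 in control and 0.14 with BMP2 for St3gal1, against 0.07 and 0.04 for St6gal1. The differences within numbers were -0.38, -0.21 and -0.34.

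The removal genes showed small differences or levels near the floor. Neu1, the lysosomal sialidase, lay at 8.008, 7.996 and 8.029 in control and at 7.978, 7.939 and 7.961 in BMP2 samples. The groups did not overlap, as for Cmah and St6gal1, but the level with BMP2 was still 96.5% of control (interval 94.1% to 98.9%) and it was not called. Groups without overlap were common, at 16.7% of all probe sets, and nothing is read from the 3 genes. Npl, the lyase that splits free sialic acid into N-acetylmannosamine and pyruvate, lay between 6.53 and 6.55 in all 6 samples. At that level a change can be hidden, so a difference of -0.0026 is no evidence of a stable level.

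The other genes of the pathway fell in 7 lists that hold no member, and all 79 of their genes were measured. In limma 1 of the 79 was higher (Slc35d1), 1 lower (Glb1) and 77 did not pass, beside 1.19% called over all probe sets. At an unadjusted limma p under 0.05 were 9 of the 79, beside 2643 of all 21115 probe sets. Among the 8879 probe sets with a mean of at least 7 there were 2071. Nothing is read from this count or from those of the single lists below. The median difference of the 79 genes was -0.0016, beside 0.00070 over all probe sets, and 35 had a mean under 7. With the replicate block 2 were higher and 3 lower, against 1.68% and 1.64% of all probe sets. These 5 were Glb1, Gfpt1, Casd1, Slc35a5 and B4galt5.

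Glb1, lysosomal beta-galactosidase, which shares a complex with Neu1 and cathepsin A, lay at 9.52, 9.46 and 9.46 in control and at 9.25, 9.27 and 9.27 in BMP2 samples. The groups did not overlap, and it fell by 0.22 on the log2 scale (SE 0.02, limma adjusted p = 0.017), to 86.1% of control. It passed in 2 of the 6 fits without a sample, those without control replicate 1 or BMP2 replicate 3. Its adjusted p was 0.074 and 0.054 without control replicates 2 and 3, 0.096 and 0.088 without BMP2 replicates 1 and 2, and 0.067 with an intensity trend. Ctsa, the cathepsin A gene of the same complex, lay at 12.34, 12.35 and 12.31 in control and at 12.39, 12.36 and 12.33 in BMP2 samples, with a limma adjusted p of 0.71. Casd1, the O-acetyltransferase of sialic acid, was lower by 0.12, 0.11 and 0.16 in the 3 replicate numbers (difference -0.13 ± 0.05 SE, limma adjusted p = 0.41, and 0.042 with the block). The sialidases Neu2, Neu3 and Neu4 had means between 6.70 and 6.93, near the floor. Slc17a5, the lysosomal exporter of sialic acid, differed by 0.0072 at a control mean of 11.65, and Siae, a sialic acid esterase, by 0.11 (limma adjusted p of 0.99 and 0.60).

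Slc35d1, a nucleotide sugar transporter of the endoplasmic reticulum that carries UDP-glucuronic acid, lay at 8.01, 8.06 and 8.20 in control and at 8.62, 8.80 and 8.63 in BMP2 samples. All BMP2 samples were above all control samples, and it rose by 0.60 ± 0.07 (SE), 1.51-fold, with a limma adjusted p of 0.039. The adjusted p was 0.052 with the replicate block, where differences of 0.61, 0.74 and 0.44 entered, and it passed in 0 of the 6 fits without a sample (0.067 without control replicate 3 to 0.16 without control replicate 2). None of the other 7 transporters passed without the block. Slc35a5, a relative of the CMP-sialic acid transporter, differed by 0.10 ± 0.04 (limma adjusted p = 0.45, and 0.042 with the block), and Slc35c1, the GDP-fucose transporter, by -0.16 ± 0.05 (adjusted p = 0.29).

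Among the 10 genes that supply UDP-N-acetylglucosamine and N-acetylmannosamine, none passed in limma and 2 had an unadjusted p under 0.05. Gfpt1, the entry enzyme of the hexosamine pathway, was lower by 0.14, 0.14 and 0.12 in the 3 replicate numbers (difference -0.13 ± 0.05 SE, limma adjusted p = 0.40), and it passed with the block (adjusted p = 0.031). Uap1, which makes UDP-N-acetylglucosamine, differed by 0.12 ± 0.04 (adjusted p = 0.27) and Amdhd2, a deacetylase that returns N-acetylglucosamine phosphate to the hexosamine pathway, by 0.11 ± 0.03 (adjusted p = 0.24). Cytochrome b5 and its reductase pass electrons to the Cmah enzyme. None of the 6 genes of that chain passed in limma and 0 had an unadjusted p under 0.05. Cyb5a lay at 12.17, 12.10 and 12.13 in control and at 12.27, 12.34 and 11.95 in BMP2 samples, overlapping, and Cyb5r3 differed by 0.06 ± 0.04 (limma adjusted p = 0.75) from a control mean of 13.12. Cyb5r1 also differed by 0.06 (adjusted p = 0.77).

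**Figure D3:**
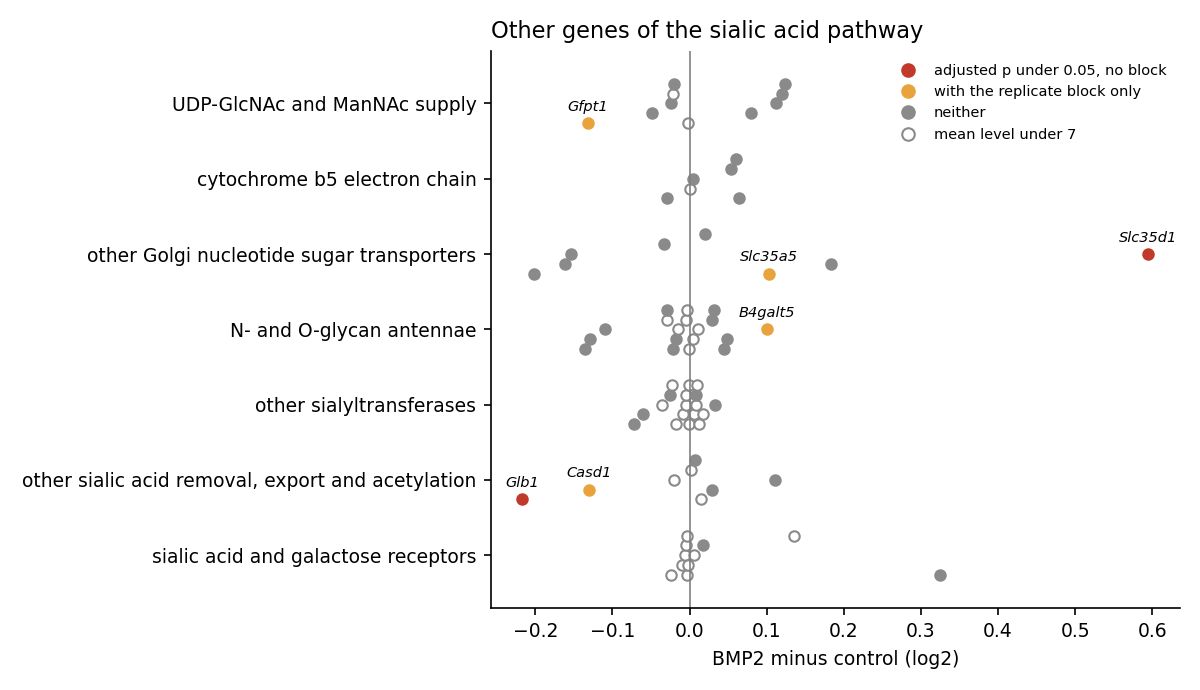
BMP2 minus control difference on the log2 scale for each of the 79 other pathway genes, 1 point per gene in 7 lists, with open points for genes with a mean level under 7 and small vertical offsets to separate points. Slc35d1 (0.60) and Glb1 (-0.22) passed without the replicate block, 4 further named genes passed with the block alone, and the other sialyltransferases lie between -0.07 and 0.03.

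Of the 18 other sialyltransferases 13 had means under 7, and none passed in limma with or without the block (0 at an unadjusted p under 0.05 without it). Their differences ran from -0.07 to 0.03, with a median of -0.0023. St3gal4, which acts on the galactose of N-glycans, lay at 8.50, 8.49 and 8.44 in control and at 8.46, 8.40 and 8.39 in BMP2 samples, and differed by -0.06 ± 0.03 (adjusted p = 0.45). St6galnac3 lay near the floor, with a mean of 6.58 in control and 6.56 in BMP2 samples (limma adjusted p = 0.42). Whether the differences of St6gal1 and St3gal1 are larger than those of the other sialyltransferases was not tested. None of the 18 genes that build and galactosylate the glycan antennae passed without the block, 3 had an unadjusted p under 0.05, and 7 had means under 7. B4galt5, a galactosyltransferase of glycolipids, differed by 0.10 ± 0.02 (limma adjusted p = 0.14, and 0.038 with the block), and Man2a2, a Golgi mannosidase, by -0.14 ± 0.03 (adjusted p = 0.11). B4galt1, which adds the galactose that St6gal1 caps, lay at 9.79, 9.83 and 9.80 in control and at 9.86, 9.77 and 9.74 in BMP2 samples, overlapping.

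The 11 receptor genes for sialic acid or exposed galactose were mostly near the floor, with 9 means under 7, and none passed in limma (1 at an unadjusted p under 0.05). Asgr1 and Asgr2 encode the subunits of the asialoglycoprotein receptor. Asgr2 lay at 6.997, 7.133 and 6.910 in control and at 7.372, 7.642 and 7.0 in BMP2 samples, with a difference of 0.32 ± 0.17 (SE, adjusted p = 0.58). Asgr1, defining for hepatocytes, was near the floor in all samples (6.67 to 6.76 in control and 6.78 to 6.95 with BMP2, limma adjusted p = 0.36). Such a level cannot be read as absence of the receptor. The siglec genes, expressed on leukocytes and glia, had differences between -0.02 and 0.02.

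The labelled cell type was checked on 8 hepatocyte markers, of which Alb, Trf, Apoa1, Fgb, Serpina1a and Ttr had group means of 12.08 to 13.84, Tat lay at 7.51 in control and 7.47 with BMP2, and Cps1 was near the floor (6.90 in control, 6.99 with BMP2). None of the 8 passed in limma, and Ttr passed with the block (0.68, adjusted p = 0.017). An unadjusted limma p under 0.05 was found for 3 of the 8, beside 2643 of all 21115 probe sets. The mean level of the list was 11.44 to 11.58 in control and 11.59 to 11.75 in BMP2 samples, so every BMP2 sample was above every control sample. Ttr, Serpina1a and Apoa1 differed by 0.68, 0.35 and 0.32. The other hepatocyte markers differed by -0.04 to 0.09, with overlapping groups. The summed linear level of the hepatocyte list was 51090 to 54980 in control and 56110 to 61400 with BMP2. Lymphocyte markers were near the floor in 6 of 6 measured genes, and their summed level was 572.1 to 579.2 in control and 573.0 to 578.4 with BMP2. Of 6 markers each, 5 endothelial, 5 stellate and 5 macrophage markers were near the floor, the exceptions being Cdh5, Col1a1 and Cd68. The summed level of the macrophage list was 658.7 to 760.5 in control and 637.7 to 671.1 with BMP2, with Cd68 at 7.75 ± 0.32 (SD, n = 3) in control and 7.41 ± 0.13 (SD, n = 3) with BMP2. That of the endothelial list was 649.3 to 678.4 and 656.8 to 696.6, and that of the stellate list 627.3 to 633.9 and 618.5 to 633.6. Of 4 measured biliary markers Krt7 and Epcam were near the floor, while Krt19 differed by -0.51 (limma adjusted p = 0.073) and Sox9 by 0.46 (adjusted p = 0.14, and 0.039 with the block). The summed level of the biliary list was 1464 to 1740 in control and 1799 to 1919 with BMP2, and Sox9, its highest gene, weighs most in it. The mean log2 level of that list overlapped between the groups, at 7.93 to 8.08 in control and 7.97 to 8.01 with BMP2. The part of these markers in the differences of Cmah and St6gal1 was not tested, and fewer cells of a type and less RNA per cell cannot be told apart in such bulk samples.

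Across the 6 samples the level of St6gal1 correlated with that of Cmah at r = 0.96, Neu1 at 0.89, St3gal1 at 0.85 and Nans at 0.49, while Npl (0.24), Slc35a1 (-0.07), Gne (-0.26) and Cmas (-0.54) showed lower values. These are descriptions over 6 arrays that fall into 2 groups. A group difference that is large beside the spread within groups weighs heavily in r. Gne, Npl and Slc35a1 differed by only 0.0026, -0.0026 and 0.01. Neu1 differed by only -0.05, but its SD was 0.02 in each group, against 0.18 in control and 0.14 with BMP2 for St3gal1 (difference -0.31). Correlation with Cmah within the groups was not computed. Among 642 other named genes with a mean of at least 7 and a range of at least 0.5, the 5 whose log2 values followed Cmah most closely were Sulf2, an extracellular sulfatase of heparan sulfate (r = 0.992), Gprc5a, an orphan receptor (0.992), Shisa4 (0.991), Timp2, a metalloproteinase inhibitor (0.989), and Ston1, an endocytic adaptor (0.989). Sulf2 lay at 9.72, 9.68 and 9.79 in control and at 9.28, 9.29 and 9.38 in BMP2 samples, with its highest value of each group in replicate 3, as for Cmah. The BMP2 differences of Gprc5a, Shisa4, Timp2 and Ston1 were -1.08, -0.80, -1.61 and -0.48. The 5 most opposite genes were Agfg1 (r = -0.996), Hid1 (-0.996), Hnf4a, a central transcription factor of hepatocytes (-0.995), Bmf, a pro-apoptotic factor (-0.995), and Fmo1, a flavin monooxygenase (-0.995). Hnf4a lay at 11.76, 11.67 and 11.62 in control and at 12.48, 12.59 and 12.42 in BMP2 samples, and in both groups replicate 3 was lowest where Cmah was highest. Not every gene shared that order. In control Shisa4 was highest in replicate 2, Timp2 was highest in replicate 1, and Bmf was lowest in replicate 2. All of these genes were picked on the same 6 values.

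**Figure D4:**
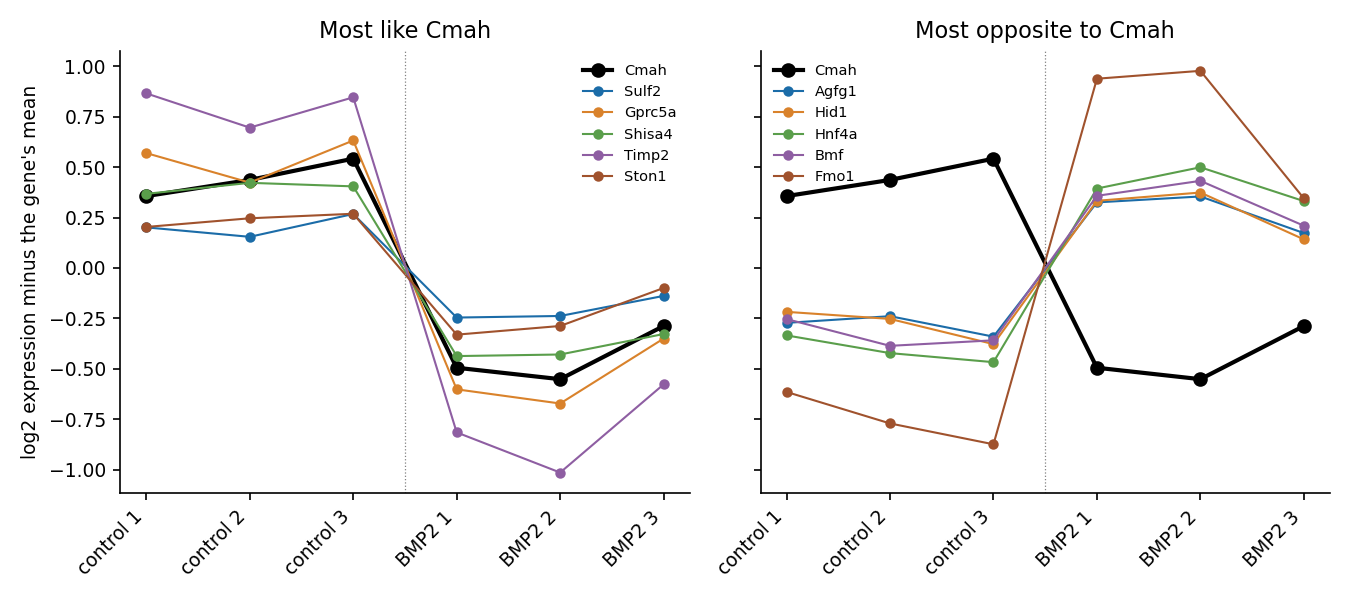
Log2 expression minus each gene's own mean in the 6 samples, in sample order, for Cmah (black) with the 5 genes most like it on the left and the 5 most opposite on the right. The step between control and BMP2 samples dominates every line, and Cmah is highest in replicate 3 of each group.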

How the data were processed

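Expression was measured with an Affymetrix array in 3 control and 3 BMP2 samples of primary mouse hepatocytes. The values that the authors deposited are log2 expression made by RMA (robust multi-array averaging), per the submitters' processing notes; which version was run, and with what filters, is not given in the sources used here. The platform annotation gave 1 gene symbol for 20405 of 21115 probe sets, several for none, and no symbol for 710. The values were tested without further normalization in R 4.3.3 with lmFit and eBayes of limma 3.58.1 (two-sided). P-values were adjusted by Benjamini-Hochberg across the 21115 probe sets, and genes with an adjusted p under 0.05 were called. Every adjusted p came from this fit unless another was stated. The others had the replicate number as a block, an intensity trend, median centring or 1 sample left out. Every SE and 95% interval came from the fit without the block.

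The members and lists were chosen with earlier results of these data known. Named genes were the members, pathway genes called in either fit, the 2 of each pathway list with the smallest p, and the 5 genes most like and most opposite to Cmah by Pearson correlation. Ctsa, Slc17a5, Siae, Neu2, Neu3, Neu4, Cyb5a, B4galt1 and the markers were named outside this rule, once their values had been seen. Id1 was also named outside it, as a check of the sample labels. Pairing by replicate number was accepted because the design names 3 mice and because residuals around the group means correlated within every number (0.48, 0.58 and 0.61 for numbers 1, 2 and 3). The main fit had no block, so spread between replicate numbers enters its SEs and intervals. Alternatives were the block, a minimum mean of 7, an intensity trend, quantile normalization, median centring and leaving out each sample. The scripts were tested on simulated data. Promoter windows and annotated starts came from RefSeq (GRCm38.p6).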

Additional observations from a re-analysis of the deposited data

How the results depend on the processing

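The 251 probe sets called over the whole table became 702 with the replicate block, 443 with a minimum mean of 7, 438 with an intensity trend and 30 to 223 with 1 sample left out. The count of called sialic acid genes was 2 in the main fit, with the replicate block, the minimum mean, the trend and quantile normalization, 1 with median centring, where St6gal1 was not called at a difference of -0.33, and 0 to 1 with 1 sample left out (3 to 5 at an unadjusted limma p under 0.05). The count of the 79 other pathway genes was 2 in the main fit, 5 with the replicate block, 1 with the intensity trend and 0 to 1 with 1 sample left out (7 to 20 at an unadjusted p). Over all probe sets 2108 to 2836 had an unadjusted limma p under 0.05 with 1 sample left out. The fits without a sample had 5 arrays and no block. Of 272 differences of 25 genes under the alternatives 263 kept their sign, and the other 9 belonged to Gne, Npl and Slc35a1, none of them called in any fit. Beside the changes given in the report, the replicate block changed no other call among the members and named pathway genes. Levels near the floor limit what can be said of Npl and of 35 of the 79 other genes.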
